A study of Mus musculus with 24 samples.

Results

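Wild-type B cells were compared with wild-type macrophages, both taken from C57BL/6J mice and both exposed to lipopolysaccharide (LPS), the outer membrane component of Gram-negative bacteria that activates Toll-like receptor 4. The comparison used 6 of the 24 libraries of the series, chosen by the sample titles, with 3 libraries in each group, and tested 11164 of the 20673 gene symbols in the files. The whole series measured messenger RNA by sequencing in activated B cells, CD4 T cells, dendritic cells and macrophages from wild-type (WT) mice and from mice lacking miR-155 (KO). The B cells came from spleen, were purified by negative selection with CD43 beads, which take away other leukocytes and already activated B cells, and were cultured with 25 µg/ml LPS and 6.5 ng/ml mouse interleukin 4 (IL-4). The macrophages were peritoneal cells recruited by thioglycollate, a sterile irritant, and were cultured with 100 ng/ml LPS with no added cytokine named in the labels. Both were kept in RPMI medium with serum. The time under LPS is not given in the sources used here. Cell type, tissue of origin, LPS dose and the presence of IL-4 therefore differ together between the groups and cannot be told apart in any result given here. The 3 libraries per group are described as sequencing replicates, with no word on separate mice or cultures. The p-values then rest on the variation among these libraries, part or all of which may be technical. These are bulk samples, in which fewer cells of a type and less RNA per cell cannot be told apart.

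B cells are the antibody-making lymphocytes. They recognise antigen through the B cell receptor, an immunoglobulin held by the Cd79a and Cd79b signalling chains, and after LPS and IL-4 they divide and switch their antibody class. Macrophages are phagocytes that take up particles through scavenger, lectin, complement and Fc receptors, digest them in acidified lysosomes, and answer LPS through CD14 and Toll-like receptor 4 with cytokines and chemokines. Both cells carry the same signalling core of MyD88, IRAK kinases and NF-kB below that receptor, and both can present peptides on MHC class II, which in B cells is a standing property and in macrophages mainly follows interferon gamma.

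Each file held raw counts of reads per gene symbol, given below as CPM, the count of a gene scaled to the size of its library. Gene counts per library ran from 9152770 to 10948168 in B cells and from 12470735 to 14219823 in macrophages, and 51.6 to 53.1% of all counted reads in a library fell outside any counted feature. The 10 genes with the most reads held 6.57 to 6.72% of B cell counts and 15.74 to 17.86% of macrophage counts. The WT macrophage libraries differed from each other far more than the WT B cell libraries did. The chi-square per gene between library pairs was 2.4 to 3.65 in these B cells and 41.46 to 170.22 in these macrophages. In the KO libraries, used below as a second set, it was 3.23 to 6.9 in B cells and 4.74 to 13.06 in macrophages. Of 7906 genes averaging above 10 CPM in macrophages, replicate 3 lay 2-fold or more above the mean of the other 2 libraries in 160 and below it in 162. For replicate 2 these numbers were 124 and 131, and for replicate 1 they were 19 and 2. In the B cell libraries 0 of 7421 such genes departed by that much. Replicate 3 also departed from the other macrophage libraries by coding length, with a median log2 ratio to replicate 1 of -0.325 for genes under 600 coding bases and 0.398 for genes of 3500 or more, and to replicate 2 of -0.403 and 0.531. The median log2 fold change of B cells over macrophages itself ran with coding length, at -0.31 for the shortest genes and 0.14 for the longest. The part of this trend in single results was not tested. Calls that were lost without 1 of these libraries are given beside the genes concerned.

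The labels were checked against marker genes. B cell markers summed to 4230, 4300 and 4430 CPM in B cells, against 102, 154 and 49.1 CPM in macrophages, where Cd22 made up most of the sum. Macrophage markers summed to 16, 16 and 11.1 CPM in B cells, against 19800, 20900 and 17700 CPM in macrophages. T cell markers reached 30.5 to 31.3 CPM in B cells, nearly all of it the kinase gene Lck, while the defining T cell gene Cd3e had no count there. Of the neutrophil markers Csf3r, the receptor for granulocyte colony-stimulating factor, had 0.802, 0.688 and 0.531 CPM in B cells, against 555, 574 and 725 CPM in macrophages, and the calgranulin S100a8 had 0, 0 and 0 CPM in B cells, against 60.8, 40.6 and 54.6 CPM in macrophages. Camp had 0, 0 and 0 CPM in B cells, against 4.22, 1.74 and 5.22 CPM in macrophages. S100a9, Elane and Mpo had 1, 5 and 3 counts over all macrophage libraries, and 0, 0 and 1 over the B cell libraries. Ly6g, Cxcr2, Retnlg and Ngp were listed at 0 in all 6 libraries. A mesothelial and stromal marker set summed to 0.0891, 0 and 0 CPM in B cells and to 247, 151 and 374 CPM in macrophages. The collagen genes Col1a1 (77.4, 38.2 and 140.2 CPM) and Col1a2 (91.3, 52.6 and 106 CPM) were its most abundant members in macrophages. The mesothelial markers Msln, Upk3b, Krt19 and Krt8 stood at 0.474 CPM or less in all 6 libraries. The part of other cells in the results below was not tested.

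**Figure D1:**
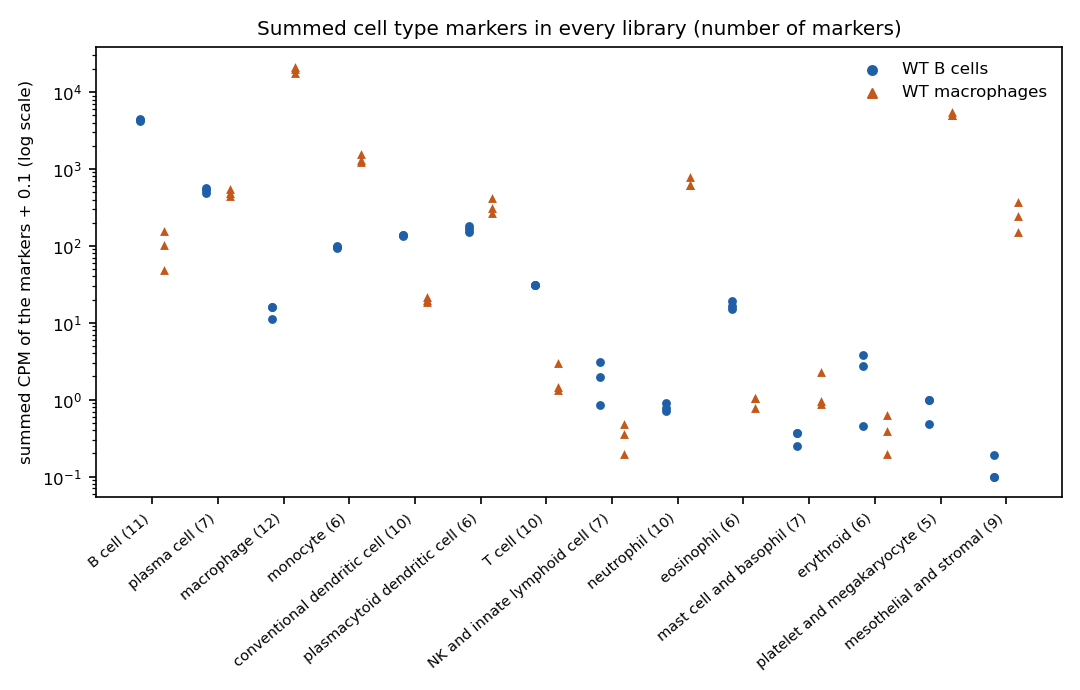
Summed level of 14 sets of cell type markers in each library, in CPM + 0.1 on a log axis, with B cells to the left of macrophages in each set. Points are single libraries. The B cell set lies at 4230 CPM or more in B cells and at 154 CPM or less in macrophages, and the macrophage set lies at 16 CPM or less in B cells and at 17700 CPM or more in macrophages.

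In all, 56.9% of the tested genes differed between the cells at the threshold used, an adjusted p under 0.05 by edgeR's quasi-likelihood test with Benjamini-Hochberg adjustment together with at least a 2-fold difference. B cells were higher than macrophages in 2849 genes (25.5% of those tested) and lower in 3506 (31.4%). The counts of gene lists below are to be read against these shares. Log2 fold changes are B cells over macrophages throughout, and CPM are scaled by the trimmed mean of M values (TMM). With no minimum fold, 4311 genes (38.6%) were higher and 4696 (42.1%) lower. Of the called genes, 596 were higher and 1244 lower by 16-fold or more. The median log2 fold change over all tested genes was -0.0642, with quartiles of -1.47 and 1.03. This balance rests on the scaling: with total counts in place of TMM the median shifted by 0.554 and the calls became 4209 higher and 2668 lower, so 61.2% of the calls were higher, against 44.8% under TMM. That rescaling changed the sign of 1407 genes, none of them called, with absolute log2 fold changes up to 0.565. Without each of the 6 libraries in turn, 2595 of the 2849 higher calls (91.1%) and 3230 of the 3506 lower calls (92.1%) were made every time.

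**Figure D2:**
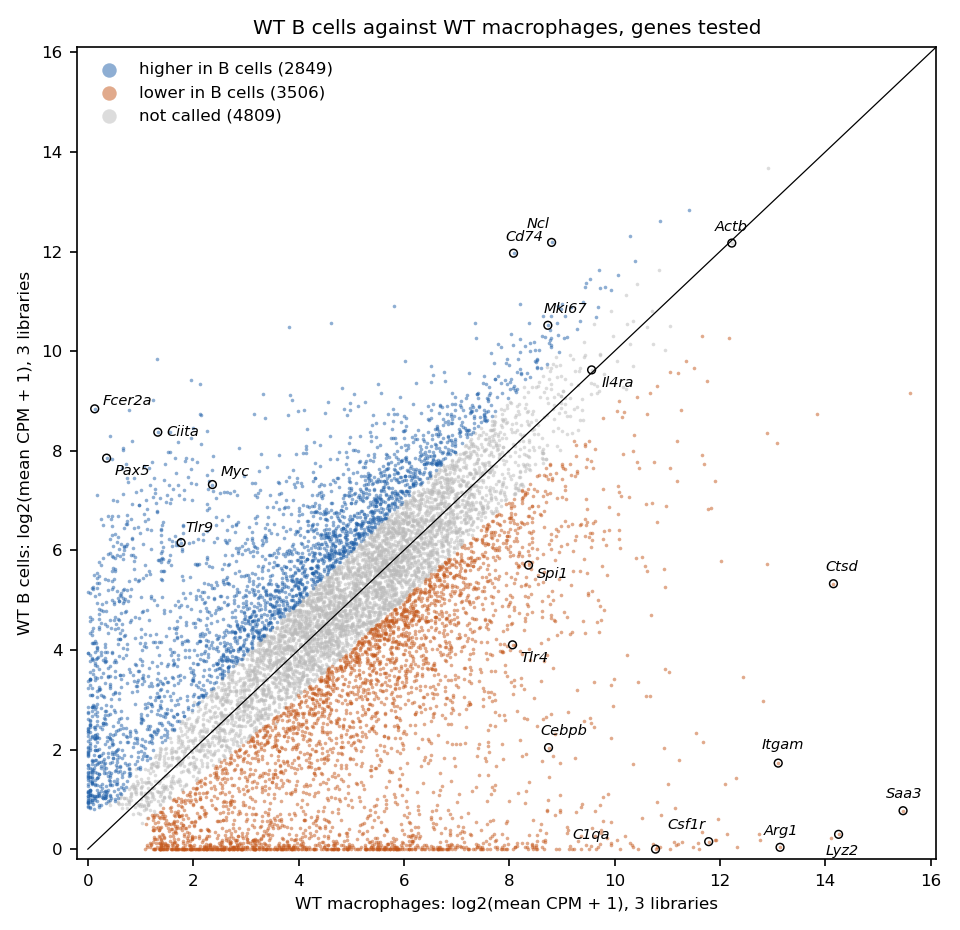
Mean level of each tested gene in macrophages (horizontal axis) and B cells (vertical axis), as log2(mean CPM + 1) over 3 libraries each. Of the 11164 genes, 2849 were called higher in B cells, 3506 lower and 4809 were not called. Named genes are circled, with Pax5 and Cd74 above the diagonal, Arg1, Saa3 and Ctsd below it, and Il4ra and Actb close to it.

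Several genes among those furthest apart are textbook markers of 1 lineage. Fcer2a, the low-affinity IgE receptor CD23 of mature B cells, had 488, 462 and 422 CPM in B cells, against 0, 0 and 0.285 CPM in macrophages. Its 3 macrophage counts in all came from 1 library, and the log2 fold change was 12.11 with a 95% counting interval of 10.73 to 14.55, with no count left without macrophage replicate 3. Such intervals, like the lower bounds given for genes with no count in a group (3 counts over its libraries), cover counting error only. The SE given for other genes comes from the test and is not such an interval. Where 1 group has few counts, as for Csf1r with 4 in B cells, the SE can understate the counting error. Among the 15 largest differences in the direction of B cells also stood Zbtb32, a zinc finger repressor, with 290.3, 299 and 354 CPM in B cells, against 0.192, 0.436 and 0.379 CPM in macrophages (log2 fold change 9.81, SE 0.22, adjusted p = 1.3e-07). The GTPase gene Gimap4 was also in this set (log2 fold change 9.28, SE 0.29, adjusted p = 2.3e-07, 9.89 without macrophage replicate 3), as was the sodium channel gene Scn4a (log2 fold change 8.96, SE 0.23, adjusted p = 1.6e-07). In the other direction the neutrophil collagenase gene Mmp8 was absent from the B cell counts and had 3774, 2988 and 2538 CPM in macrophages, which makes it at least 36795-fold lower in B cells. Lyz2, which encodes lysozyme, an antibacterial enzyme of myeloid cells, had 0.178, 0.153 and 0.354 CPM in B cells, against 21077, 23894 and 13628 CPM in macrophages (log2 fold change -16.34, SE 0.53, adjusted p = 2.8e-07). Coagulation factor VII (F7) had 0 counts in B cells and 833, 911 and 452 CPM in macrophages, at least 8691-fold lower in B cells. Arg1, which breaks down arginine, had 1 count in B cells and 9563, 9112 and 8452 CPM in macrophages, with a log2 fold change of -17.82 with a 95% counting interval of -23.6 to -15.82, with no count left without B cell replicate 2.

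Levels of different genes were compared per kilobase of coding length, known for 11116 of the tested genes. The translation elongation factor Eef1a1 led in B cells with 9409.8 CPM per kb, against 5571 CPM per kb in macrophages. Cd74, the invariant chain of MHC class II, stood at rank 3 in B cells and 445 in macrophages, with 4781 CPM per kb in B cells and 323 in macrophages. In macrophages the acute phase protein gene Saa3 led with 124688 CPM per kb, against 1.93 in B cells. Ferritin heavy chain (Fth1) came next in macrophages with 91467 CPM per kb, against 1051 in B cells. No fold or test is attached to these orders.

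The B cell receptor complex and its co-receptors were higher in B cells as a set of genes, with 11 of 18 tested members called higher, 3 lower and a median log2 fold change of 3.48, against -0.06 over all genes. Ms4a1, which encodes CD20, had 515, 494 and 548 CPM in B cells, against 1.05, 1.22 and 1.8 CPM in macrophages. All 3 B cell libraries were far above every macrophage library (log2 fold change 8.57, SE 0.20, adjusted p = 1.4e-07). The receptor's signalling chain Cd79b had 659.8, 649 and 731 CPM in B cells, against 1.63, 3.22 and 3.79 CPM in macrophages, again with no overlap (log2 fold change 7.87, SE 0.29, adjusted p = 4.4e-07). Cd22, an inhibitory co-receptor, differed less, with counts in macrophages too and 652, 656 and 685 CPM in B cells, against 95.4, 145 and 31.2 CPM in macrophages (log2 fold change 2.88, SE 0.50, adjusted p = 0.00111). Macrophage replicate 3 was the lowest of the 3 for Cd22. The 3 members that were lower in B cells were Fcgr2b, Cd38 and Ifitm1. Fcgr2b, the inhibitory IgG receptor of both cell types, had 87.2, 87.4 and 108 CPM in B cells, against 1675, 1907 and 1769 CPM in macrophages (log2 fold change -4.24, SE 0.17, adjusted p = 5.4e-07). Cd37 and Ly9 were not called, with log2 fold changes of 0.40 and -0.60.

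For signalling below the receptor, 7 of 22 tested genes were higher in B cells (31.8%) and 8 lower (36.4%), near the 25.5% and 31.4% of all genes, with a median of 0.61. Total-count scaling gave 12 higher and 2 lower. Bank1, a B cell scaffold protein, had 223, 224 and 241 CPM in B cells, against 2.11, 3.49 and 2.28 CPM in macrophages. The B cell libraries stood far above the macrophage libraries (log2 fold change 6.44, SE 0.19, adjusted p = 2.0e-07). Vav2, an exchange factor, had a log2 fold change of 1.9 and the adaptor Blnk one of 1.33. In contrast Syk, the kinase that both antigen and Fc receptors use, had 169.6, 150.4 and 192 CPM in B cells, against 402, 367 and 503 CPM in macrophages, and was lower in B cells (log2 fold change -1.31, SE 0.16, adjusted p = 1.6e-04). Lyn and Vav1 were lower too, with log2 fold changes of -1.36 and -1.03. Plcg2 and Pik3cd were above 0 without reaching a 2-fold difference (0.62 and 0.80). Among the Src and Tec family kinases, 6 of 14 were higher in B cells (42.9%) and 5 lower (35.7%), against 25.5% and 31.4% of all genes. Blk, the Src kinase of B cells, had 63.8, 68.8 and 65.6 CPM in B cells, against 0.383, 0.61 and 0.854 CPM in macrophages (log2 fold change 6.72, SE 0.20, adjusted p = 2.0e-07), whereas the myeloid Src kinase Fgr had 4.54, 8.33 and 6.29 CPM in B cells, against 150.1, 167 and 124 CPM in macrophages (log2 fold change -4.51, SE 0.23, adjusted p = 1.9e-06). Btk, a Tec family kinase, was not called (204, 211 and 202 CPM in B cells, against 123, 123 and 136 CPM in macrophages), with a log2 fold change of 0.69. In the PI3 kinase list 0 of 14 members were higher and 6 were lower in B cells (42.9%), against 31.4% of all genes, and with total counts 1 was higher. The gamma catalytic subunit Pik3cg had 13.7, 14.1 and 16.2 CPM in B cells, against 293, 197 and 388 CPM in macrophages (log2 fold change -4.32, SE 0.27, adjusted p = 4.9e-06), while the lipid phosphatase Inpp5d (SHIP1) had 298, 298 and 282 CPM in B cells, against 304, 297 and 321 CPM in macrophages and was not called, its log2 fold change of -0.07 changing sign with total-count scaling.

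Transcription factors of the B lineage were called higher in B cells for 17 of 22 tested genes, with 1 lower and a median of 3.96. Pax5, which commits progenitors to the B lineage, had 234, 236 and 220.2 CPM in B cells, against 0.287, 0.174 and 0.379 CPM in macrophages. The macrophage libraries were near 0 (log2 fold change 9.64, SE 0.18, adjusted p = 1.1e-07). The co-activator Pou2af1 had a log2 fold change of 8.8 (9.86 without macrophage replicate 3) and the zinc finger factor Bcl11a one of 9.22. Ikzf1, used across lymphoid and myeloid cells, differed less (239, 219.6 and 229.6 CPM in B cells, against 61.6, 47.8 and 83.8 CPM in macrophages; log2 fold change 1.83, SE 0.20, adjusted p = 9.0e-05). Prdm1, the repressor that drives plasma cell differentiation, was the member lower in B cells, with 11.1, 14.7 and 19.6 CPM in B cells, against 38.8, 36.2 and 41.9 CPM in macrophages (log2 fold change -1.36, SE 0.20, adjusted p = 4.7e-04). Xbp1, the secretory factor that follows Prdm1 in plasma cells, had 241, 265 and 251 CPM in B cells, against 263, 233 and 261 CPM in macrophages. The groups overlapped and the log2 fold change was 0.00 (SE 0.10). The plasma cell and secretory list as a whole had 5 of 21 members higher (23.8%) and 6 lower (28.6%), about the shares of all genes (25.5% and 31.4%), with a median of 0.00 that shifted to 0.56 under total counts. Mzb1, an endoplasmic reticulum protein of B cells, had 225, 244 and 279 CPM in B cells, against 0.958, 0.959 and 3.89 CPM in macrophages (log2 fold change 7.01, SE 0.45, adjusted p = 5.6e-06, 8.0 without macrophage replicate 3). Sdc1, the plasma cell surface marker CD138 that peritoneal macrophages also carry, had 2.23, 2.22 and 2.83 CPM in B cells, against 239.8, 207 and 119 CPM in macrophages (log2 fold change -6.28, SE 0.33, adjusted p = 2.1e-06). The calls of Creld2, Herpud1 and Edem1 lay close to the 2-fold limit: their values without single libraries ran from 0.84 to 0.97, 0.95 to 0.98 and -1.0 to -0.96 where the call was lost.

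Class switching genes were higher in B cells for 17 of 25 members, and none was lower (median 1.87). Mismatch repair and base excision genes with roles in all dividing cells were in this list. Msh6, part of the mismatch sensor, had 256, 261 and 243 CPM in B cells, against 32.3, 29.8 and 39.4 CPM in macrophages (log2 fold change 2.9, SE 0.13, adjusted p = 1.0e-06), and the abasic site nuclease Apex1 had 209.8, 216 and 226 CPM in B cells, against 33.8, 46.9 and 22.6 CPM in macrophages (log2 fold change 2.66, SE 0.25, adjusted p = 4.0e-05). Parp1 had a log2 fold change of 1.98 and Rif1, which protects broken ends, one of 2.99. Dclre1c (Artemis) was not called (-0.82).

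IL-4 was added to the B cell cultures only. Of 24 genes listed as its targets or signalling parts, 5 were higher (20.8%) and 9 lower (37.5%) in B cells, near the 25.5% and 31.4% of all genes (median -0.64). With total counts there were 8 higher and 8 lower. Il4ra, the receptor chain, had 829, 803 and 731 CPM in B cells, against 754, 750.1 and 765 CPM in macrophages. The libraries overlapped and the log2 fold change was 0.06 (SE 0.12), or 0.61 with total-count scaling. Cish, an inhibitor that STAT proteins induce, had 56.8, 69.6 and 36.7 CPM in B cells, against 15, 15.4 and 28.5 CPM in macrophages (log2 fold change 1.47, SE 0.32, adjusted p = 0.00375). The list joins B cell targets such as Fcer2a with macrophage targets such as Arg1 and Mrc1. Mrc1, the mannose receptor, had 1.16, 0.611 and 1.15 CPM in B cells, against 311, 633 and 338 CPM in macrophages (log2 fold change -8.78, SE 0.44, adjusted p = 1.7e-06), in macrophages for which the labels name no IL-4. Il2rg, the shared cytokine receptor chain, was lower in B cells (log2 fold change -1.49, SE 0.19, adjusted p = 2.2e-04).

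**Figure D3:**
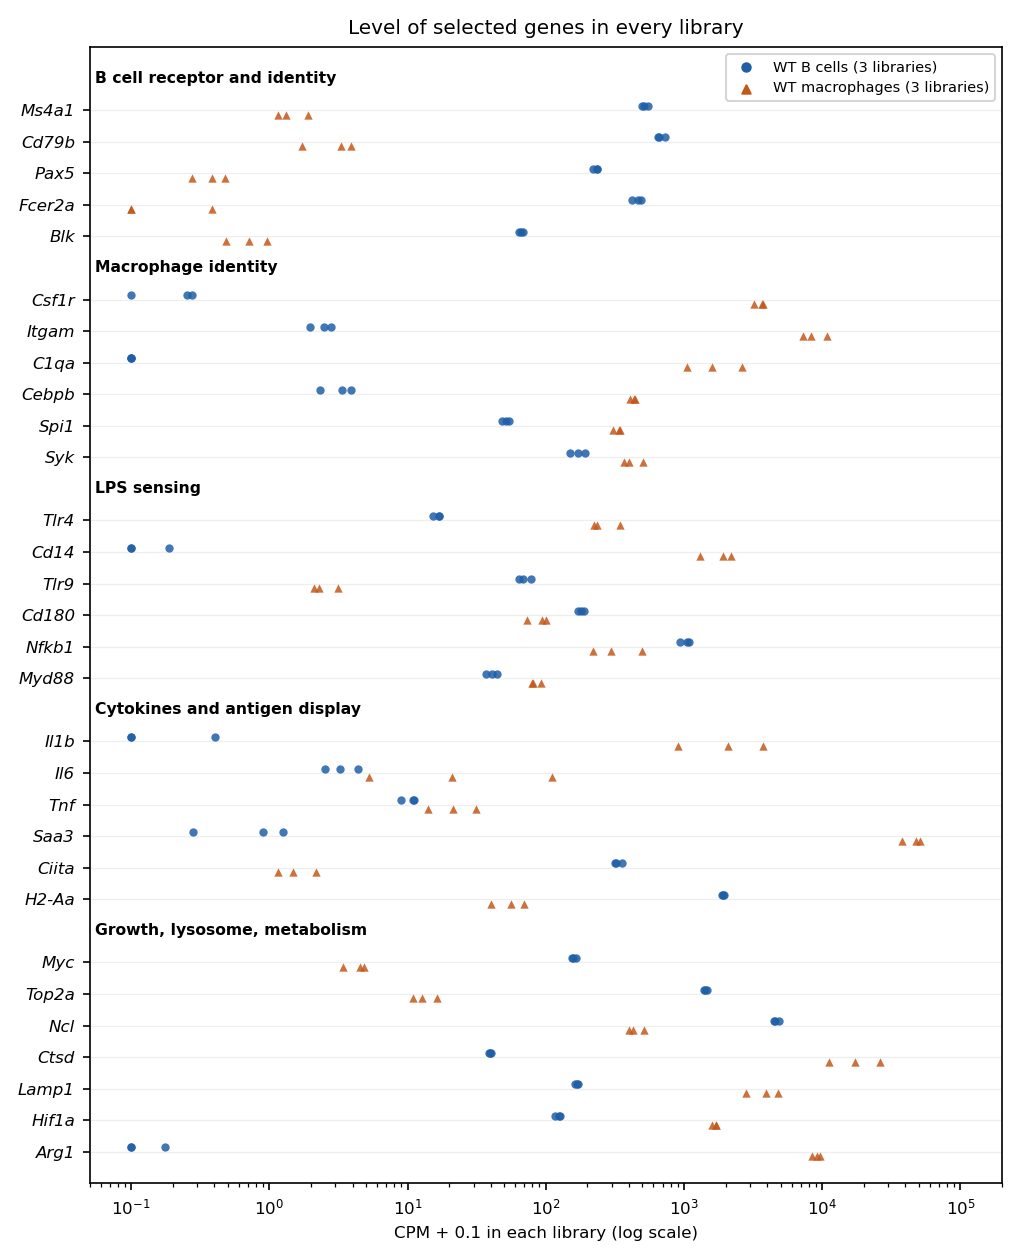
Level of 30 genes in each of the 3 B cell and 3 macrophage libraries, as CPM + 0.1 on a log axis, in 5 blocks by role, with B cells above macrophages in each row. Points are single libraries. For Ms4a1 the B cell points lie between 494 and 548 CPM and the macrophage points at 1.8 CPM or less, while for Itgam the B cell points lie at 2.67 CPM or less and the macrophage points at 7258 CPM or more.

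Myeloid transcription factors were lower in B cells for 23 of 28 members and higher for 3 (median -3.65). Spi1, which encodes PU.1 and is needed by both lineages at different doses, had 51.4, 48.2 and 53.7 CPM in B cells, against 338, 344 and 305 CPM in macrophages. Both cell types expressed it and the groups did not overlap (log2 fold change -2.69, SE 0.11, adjusted p = 5.3e-07). Cebpb, a C/EBP factor of inflammatory myeloid cells, had 2.23, 3.82 and 3.28 CPM in B cells, against 444, 409.8 and 432 CPM in macrophages (log2 fold change -7.09, SE 0.20, adjusted p = 1.9e-07). Zeb2 had a log2 fold change of -3.51. The members higher in B cells were Irf8, Klf2 and Tfeb. Irf8, an interferon regulatory factor of B cells and mononuclear phagocytes, had 355, 355 and 363 CPM in B cells, against 141, 149.6 and 126 CPM in macrophages (log2 fold change 1.36, SE 0.10, adjusted p = 1.3e-05). Irf5 and Rara were not called, at 0.28 and -0.38. In the IRF family, 2 of 8 tested members were higher (25.0%) and 1 lower (12.5%), against 25.5% and 31.4% of all genes. Irf4 had 80.4, 89.8 and 70.8 CPM in B cells, against 1.44, 1.66 and 4.46 CPM in macrophages (log2 fold change 5.0, SE 0.36, adjusted p = 1.1e-05, 5.67 without macrophage replicate 3), and Irf3, Irf9, Irf1 and Irf2 were not called.

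All 28 tested phagocytic and scavenger receptors were lower in B cells, against 31.4% of all genes, with a median of -11.89, or -9.75 with genes absent from B cells set at their bound. Itgam, the alpha chain of complement receptor 3, had 1.87, 2.67 and 2.39 CPM in B cells, against 8359, 7258 and 10865 CPM in macrophages (log2 fold change -11.89, SE 0.35, adjusted p = 2.1e-07). Its beta chain Itgb2, which lymphocytes share in LFA-1, had 113, 108 and 123 CPM in B cells, against 3729, 3375 and 3795 CPM in macrophages (log2 fold change -4.99, SE 0.17, adjusted p = 3.3e-07). Every B cell library was below every macrophage library for both genes. Adgre1, the F4/80 antigen, had a log2 fold change of -9.1, and Lrp1, an endocytic receptor for dying cells and protease complexes, had 0.0891, 0.382 and 0.354 CPM in B cells, against 2581, 2036 and 5110.0 CPM in macrophages (log2 fold change -13.44, SE 0.65, adjusted p = 1.4e-06). Cd14, which hands LPS to the receptor complex, had a single count in B cells and 1902, 1305 and 2190.5 CPM in macrophages (log2 fold change -15.49 with a 95% counting interval of -21.26 to -13.48, with no count left without B cell replicate 1). The smallest difference in the list was a log2 fold change of -1.10.

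Fc receptors divided by type. Of 12 tested members, 5 were higher in B cells (41.7%) and 6 lower (50.0%), against 25.5% and 31.4% of all genes (median -1.81). The activating IgG receptor Fcgr3 had 0.713, 0.611 and 0.974 CPM in B cells, against 2273, 2919 and 1651 CPM in macrophages (log2 fold change -11.53, SE 0.38, adjusted p = 2.9e-07). Its signalling gamma chain Fcer1g had 0.0891, 0.0764 and 0.177 CPM in B cells, against 422, 404 and 362 CPM in macrophages (log2 fold change -11.65, SE 0.21, adjusted p = 1.1e-07). Fcgr1 had 2 counts in B cells and 442, 293 and 362 CPM in macrophages (log2 fold change -12.41 with a 95% counting interval of -15.71 to -10.81). Fcgr4 had a log2 fold change of -6.57 and the neonatal receptor Fcgrt one of -5.14. On the B cell side stood Fcer2a, the Fc receptor-like genes Fcrl1 (7.25), Fcrl5 (7.05) and Fcrla (3.74), and Fcamr, the receptor for IgA and IgM (at least 13.1-fold higher, with no count in macrophages). Fcgr genes share stretches of near-identical sequence, and how reads between such copies were counted is not given in the sources used here.

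Among ITAM adaptors and their receptors, of 16 tested genes, 3 were higher (18.8%) and 13 lower (81.2%), against 25.5% and 31.4% of all genes. The median was -9.16, or -7.43 with bounds. Tyrobp (DAP12), the adaptor of Trem and other myeloid receptors, had 0.624, 0.764 and 0.708 CPM in B cells, against 803, 1051 and 516 CPM in macrophages (log2 fold change -10.12, SE 0.40, adjusted p = 5.7e-07), while the B cell receptor chains Cd79a and Cd79b carried the opposite sign (6.98 and 7.87, and for Cd79a 7.81 without macrophage replicate 3). Inhibitory ITIM receptors were lower in B cells for 12 of 20 genes and higher for 3. Pirb had 9.0, 9.24 and 9.56 CPM in B cells, against 1376, 1592 and 1186 CPM in macrophages (log2 fold change -7.22, SE 0.19, adjusted p = 1.6e-07) and Sirpa, which reads the CD47 signal, had 2.85, 2.22 and 1.68 CPM in B cells, against 1281, 1132 and 1518 CPM in macrophages (log2 fold change -9.18, SE 0.27, adjusted p = 2.0e-07). Siglecg, an inhibitor of B cell receptor signalling, had 167, 167 and 187 CPM in B cells, against 0.671, 0.523 and 1.33 CPM in macrophages (log2 fold change 7.68, SE 0.24, adjusted p = 2.5e-07). The phosphatase Ptpn6 (SHP-1), which both kinds of receptor recruit, had 527, 532 and 538 CPM in B cells, against 583, 515 and 599.6 CPM in macrophages. It was not called, at a log2 fold change of -0.09 (SE 0.12) whose sign changed with total-count scaling.

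Complement genes were lower in B cells for 14 of 16 tested members (87.5%, against 31.4% of all genes), with a median of -13.28 (-11.63 with bounds). C3, the central component, had 0, 0.229 and 0.177 CPM in B cells, against 6376, 3762 and 10806 CPM in macrophages (log2 fold change -15.5, SE 0.78, adjusted p = 1.7e-06). Macrophage replicate 2 was the lowest and replicate 3 the highest of the 3. Cfb, a factor of the alternative pathway, had 0.267, 0.153 and 0 CPM in B cells, against 4981, 1649 and 4884 CPM in macrophages, with replicate 2 again the lowest (log2 fold change -14.63, SE 0.83, adjusted p = 2.9e-06, -15.33 without B cell replicate 1). C1qa, part of the first component, had no count in B cells and 1591, 2617 and 1058 CPM in macrophages, at least 20836-fold lower in B cells. Here replicate 2 was the highest and replicate 3 the lowest. Cfp (properdin), which stabilises the alternative convertase, also had counts in B cells, with 98.2, 109 and 130.5 CPM in B cells, against 3292, 2838 and 4419.5 CPM in macrophages (log2 fold change -4.96, SE 0.25, adjusted p = 1.8e-06). The members higher in B cells were the receptor Cr2, with 34.5, 33.7 and 42 CPM in B cells, against 0.0958, 0 and 0.285 CPM in macrophages (log2 fold change 8.09, SE 0.38, adjusted p = 1.3e-06, 7.5 without macrophage replicate 2 and 9.33 without macrophage replicate 3), and the decay factor Cd55 with 21.6, 20.6 and 26.2 CPM in B cells, against 2.3, 2.79 and 1.61 CPM in macrophages (log2 fold change 3.34, SE 0.21, adjusted p = 5.2e-06).

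Lysosomal genes were lower in B cells without exception among the 37 tested, with a median of -3.91. Ctsd, the aspartic protease cathepsin D, had 39.8, 38.5 and 39.3 CPM in B cells, against 17368, 26233 and 11162 CPM in macrophages. The B cell libraries lay close together, and macrophage replicate 3 was the lowest of its group (log2 fold change -8.86, SE 0.45, adjusted p = 1.8e-06). Ctss, which trims the invariant chain in antigen-presenting cells, had 275, 294 and 288 CPM in B cells, against 9693, 12159 and 4361 CPM in macrophages (log2 fold change -4.94, SE 0.42, adjusted p = 2.5e-05). Psap, the precursor of the saposins, had 417, 435 and 427 CPM in B cells, against 14715, 20966 and 8369 CPM in macrophages (log2 fold change -5.11, SE 0.40, adjusted p = 1.5e-05). Ctsb had a log2 fold change of -7.2 and the membrane protein Lamp1 one of -4.53. The vacuolar ATPase, the proton pump that acidifies the lysosome, was lower in B cells in all 18 tested subunits (median -2.71), of which 14 were called with total counts. Its subunit Tcirg1 had 75.3, 88.2 and 86.5 CPM in B cells, against 879.6, 1054 and 728 CPM in macrophages (log2 fold change -3.41, SE 0.18, adjusted p = 2.0e-06), and the catalytic subunit Atp6v1a had 78.1, 76.9 and 77.4 CPM in B cells, against 609, 744 and 493 CPM in macrophages (log2 fold change -2.99, SE 0.17, adjusted p = 3.2e-06). Atp6v0d2, a subunit of macrophages and osteoclasts, had no count in B cells and 197, 483 and 51.3 CPM in macrophages, at least 2894-fold lower in B cells (1476-fold without macrophage replicate 2). The calls for Atp6v0a2 and Atp6v1f were lost without macrophage replicate 3 (-0.93) and replicate 2 (-0.96).

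The MiT/TFE transcription factors, which bind the E-box TCACGTGA in lysosomal promoters, did not move as 1 group. Tfeb was called higher in B cells, with 53.8, 50.8 and 55.9 CPM in B cells, against 24.5, 34.2 and 20.5 CPM in macrophages (log2 fold change 1.02, SE 0.19, adjusted p = 0.0015), but the call was lost without macrophage replicate 3 (0.85), macrophage replicate 1 (0.96) or B cell replicate 3 (0.99). Tfe3 had 27.6, 24.4 and 26.8 CPM in B cells, against 143, 128 and 155 CPM in macrophages and was lower in B cells (log2 fold change -2.44, SE 0.11, adjusted p = 1.1e-06). Mitf was lower as well, with 0.446, 0.153 and 0.266 CPM in B cells, against 43.1, 47.3 and 61.1 CPM in macrophages (log2 fold change -7.43, SE 0.29, adjusted p = 5.9e-07). Tfec had no count in B cells and 92.4, 103 and 106 CPM in macrophages, at least 1193-fold lower in B cells. Promoter windows from RefSeq (build GRCm38.p6, from 250 bases before to 50 bases after the start, matched by symbol for 8681 of the tested genes) were searched on both strands for the E-box. It was found in 197 of the 8681 genes (2.27%), in 4 of 30 lysosomal genes (13.3%) and in 3 of 12 pump subunits (25.0%), and in 1.58% of genes higher and 2.38% of genes lower in B cells. A PU.1 motif, GAGGAAGT, was found in as many lysosomal genes, 4 of 30 (13.3%), and in 0 of the 12 pump subunits, against 349 of 8681 genes (4.02%). It was also in 3 of 13 B cell receptor genes (23.1%) and 1 of 20 phagocytic receptors (5.0%). The octamer ATGCAAAT was in 1 of 30 lysosomal genes (3.33%), in 0 of 13 B cell receptor genes and in 135 of 8681 (1.56%). An NF-kB motif was in 3 of 10 chemokine genes and in 47 of 8681 (0.541%). A match is a description of letters and not evidence of binding. The windows around the match are shown for the most abundant such genes of both lists, on the strand of the gene, with the E-box in capitals. They lie at chr7:142387908-142387937 (minus strand), chr2:164833743-164833772 (plus) and chr16:44139373-44139402 (minus), 99, 13 and 132 bases before the start.
Ctsd: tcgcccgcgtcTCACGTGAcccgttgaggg
Ctsa: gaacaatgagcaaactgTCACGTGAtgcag
Atp6v1a: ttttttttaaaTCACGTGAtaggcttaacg

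Genes for oxidative killing and arginine use were lower in B cells for 12 of 16 members, with none higher (median -2.37). With total counts, 10 were lower. Cybb, the catalytic subunit of the phagocyte NADPH oxidase, had 209.8, 195 and 228 CPM in B cells, against 3392, 2281 and 4282 CPM in macrophages (log2 fold change -3.98, SE 0.27, adjusted p = 7.8e-06). Its partner Cyba had 209.8, 222 and 223 CPM in B cells, against 1474, 1633 and 999 CPM in macrophages (log2 fold change -2.65, SE 0.21, adjusted p = 1.6e-05). The cytosolic subunit Ncf1 was not called (-0.81), nor was the GTPase Rac2 (306, 314 and 322 CPM in B cells, against 301, 258 and 349 CPM in macrophages), with a log2 fold change of 0.05. Nos2, the inducible nitric oxide synthase, had 0 counts in B cells and 88.7, 11.2 and 139.7 CPM in macrophages, at least 948-fold lower in B cells (593-fold without macrophage replicate 3). Macrophage replicate 2 was the lowest for Nos2, and the call was lost without replicate 3 (-12.17). The arginine transporter Slc7a2 had 3 counts in B cells and 572, 236 and 1736 CPM in macrophages (log2 fold change -13.12 with a 95% counting interval of -15.55 to -11.72, with no count left without B cell replicate 2 and -12.07 without macrophage replicate 3).

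Lipid and iron handling genes were mostly lower in B cells. Of 21 lipid genes, 19 were lower in B cells and none higher (median -5.74). Apoe, the lipid carrier that macrophages secrete, had 6.59, 7.03 and 6.99 CPM in B cells, against 6349, 12117 and 3239 CPM in macrophages (log2 fold change -10.04, SE 0.65, adjusted p = 5.6e-06, -9.45 without macrophage replicate 2). Replicate 2 had the most and replicate 3 the least of the macrophage libraries. Abca1, which exports cholesterol, had 3.39, 2.83 and 4.07 CPM in B cells, against 3169, 2779 and 3912 CPM in macrophages (log2 fold change -9.91, SE 0.29, adjusted p = 2.0e-07). Gpnmb had 0.178, 0.458 and 0.0885 CPM in B cells, against 7469, 10873 and 2118 CPM in macrophages (log2 fold change -14.66, SE 1.01, adjusted p = 7.9e-06, -15.52 without B cell replicate 2). The related exporter Abcg1 was not called, with 41.1, 37.9 and 49.8 CPM in B cells, against 49.8, 55.1 and 36.9 CPM in macrophages and a log2 fold change of -0.14 that changed sign under total counts. Of 23 iron, haem and oxidative stress genes, 16 were lower and 1 higher (median -3.37). Fth1 had 520.5, 610.4 and 591 CPM in B cells, against 56763, 52664 and 40396 CPM in macrophages (log2 fold change -6.44, SE 0.32, adjusted p = 1.4e-06), and Hmox1, the haem-degrading enzyme, had 2.85, 5.27 and 3.98 CPM in B cells, against 3214, 3196 and 2553 CPM in macrophages (log2 fold change -9.52, SE 0.32, adjusted p = 2.9e-07). Bach2, a repressor of B cells related to the haem sensor Bach1, was the member higher in B cells, with 80.5, 80 and 62.9 CPM in B cells, against 2.68, 4.53 and 2.66 CPM in macrophages (log2 fold change 4.49, SE 0.23, adjusted p = 1.8e-06). The transferrin receptor Tfrc was not called (189.6, 180.5 and 167 CPM in B cells, against 119.6, 206 and 88 CPM in macrophages).

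Actin and adhesion genes were lower in B cells for 29 of 34 members and higher for none (median -3.03). With total counts, 26 were lower. The matrix protein fibronectin (Fn1) had 0, 0.306 and 0.0885 CPM in B cells, against 2749, 2454 and 6408 CPM in macrophages (log2 fold change -14.65, SE 0.80, adjusted p = 2.4e-06, -16.07 without B cell replicate 2). Galectin 3 (Lgals3) had 2.76, 2.52 and 2.04 CPM in B cells, against 2275, 3771 and 1081 CPM in macrophages (log2 fold change -9.92, SE 0.62, adjusted p = 4.7e-06). Filamin A (Flna), present in both cells, had 803, 763 and 700.3 CPM in B cells, against 2299.7, 1287 and 3462 CPM in macrophages (log2 fold change -1.64, SE 0.34, adjusted p = 0.00298). The actins themselves were close: Actb had 4462, 4527 and 4835 CPM in B cells, against 5248, 4104 and 5020.2 CPM in macrophages, with a log2 fold change of -0.06 (SE 0.18), and Actg1 one of -0.20. Both changed sign with total-count scaling.

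Toll-like receptors and their accessory proteins were lower in B cells for 12 of 18 genes (66.7%) and higher for 3 (16.7%). The shares of all genes were 31.4% and 25.5%, and the median of the list was -2.04. With total counts, 9 were lower and 3 higher. Tlr4, the LPS receptor, had 16.8, 15.1 and 16.7 CPM in B cells, against 233, 222 and 345 CPM in macrophages. The B cell libraries lay at 15.1 to 16.8 CPM and the groups did not overlap (log2 fold change -4.04, SE 0.20, adjusted p = 1.7e-06). Ly96 (MD-2), the LPS-binding partner of Tlr4, had 5.79, 3.97 and 5.75 CPM in B cells, against 32.8, 40.3 and 29.5 CPM in macrophages (log2 fold change -2.73, SE 0.20, adjusted p = 1.0e-05). Tlr2 had 7.39, 6.34 and 8.5 CPM in B cells, against 1834, 1521 and 1532 CPM in macrophages (log2 fold change -7.78, SE 0.21, adjusted p = 1.6e-07). On the B cell side was Tlr9, the receptor for unmethylated DNA, with 77.8, 64.3 and 68.8 CPM in B cells, against 2.01, 3.05 and 2.18 CPM in macrophages (log2 fold change 4.85, SE 0.18, adjusted p = 4.4e-07). Tlr12 had 5.08, 3.51 and 6.46 CPM in B cells, against 0.0958, 0 and 0 CPM in macrophages, low in both (log2 fold change 6.9 with a 95% counting interval of 4.83 to 12.64, with no count left without macrophage replicate 1). Cd180, a Toll-like receptor 4 homologue that B cells use with Ly86 in LPS responses, had 179, 169.8 and 190.2 CPM in B cells, against 100.0, 94 and 72.7 CPM in macrophages (log2 fold change 1.01, SE 0.14, adjusted p = 2.9e-04). That call was lost without macrophage replicate 3 (0.88) or B cell replicate 3 (0.98). Ly86, Tlr1 and the chaperone Hsp90b1 were not called, at 0.40, -0.76 and 0.10.

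Of 39 genes of TLR and NF-kB signalling below the receptors, 5 were higher (12.8%), 8 lower (20.5%) and 26 not called, against 25.5% and 31.4% of all genes. Total counts gave 10 higher and 6 lower. The median of -0.04 changed to 0.52 with total counts and to 0.16 without macrophage replicate 3. Nfkb1, which encodes the p50 precursor, had 1050.1, 1088 and 938 CPM in B cells, against 298, 218 and 495 CPM in macrophages. All B cell libraries were above all macrophage libraries, with replicate 3 the highest of the macrophages (log2 fold change 1.61, SE 0.29, adjusted p = 0.00151). Rel, the subunit prominent in lymphocytes, had 93.1, 90.8 and 75.4 CPM in B cells, against 24.2, 23.3 and 35.6 CPM in macrophages (log2 fold change 1.64, SE 0.19, adjusted p = 1.1e-04). Nfkb2 had 371, 353 and 370.3 CPM in B cells, against 369, 308 and 445 CPM in macrophages and was not called, with a log2 fold change of -0.04 whose sign changed under total counts. The inhibitor Nfkbia was not called (-0.62). Irak3, which dampens the pathway in monocytes and macrophages, had 20.7, 23.8 and 25.7 CPM in B cells, against 468, 326 and 579 CPM in macrophages (log2 fold change -4.29, SE 0.24, adjusted p = 2.8e-06). Tnip1, which restrains NF-kB with A20, had 71.7, 73.3 and 73.1 CPM in B cells, against 457, 266 and 607 CPM in macrophages (log2 fold change -2.61, SE 0.29, adjusted p = 9.6e-05). Myd88 had 41, 36.8 and 44 CPM in B cells, against 92.5, 79.2 and 80.4 CPM in macrophages (log2 fold change -1.05, SE 0.11, adjusted p = 8.0e-05), a call lost without B cell replicate 2 (-0.97) or macrophage replicate 1 (-0.98). Traf1, an adaptor of tumour necrosis factor receptors, had 222, 217 and 226 CPM in B cells, against 78.7, 54.1 and 172 CPM in macrophages (log2 fold change 1.13, SE 0.39, adjusted p = 0.0282, 1.73 without macrophage replicate 3), and lost its call without any 1 of the other 5 libraries.

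Inflammatory mediators were lower in B cells for 23 of 27 tested genes and higher for 3 (median -7.60). Saa3 had 0.178, 1.15 and 0.797 CPM in B cells, against 47955, 37564 and 51389 CPM in macrophages (log2 fold change -15.92, SE 0.62, adjusted p = 5.8e-07), and thrombospondin 1 (Thbs1) had 0.0891, 0.306 and 0.0885 CPM in B cells, against 15194, 13778 and 24262 CPM in macrophages (log2 fold change -16.6, SE 0.58, adjusted p = 3.7e-07, -17.43 without B cell replicate 2). Il1b, the precursor of interleukin 1 beta, had 0, 0.306 and 0 CPM in B cells, against 2092, 904 and 3755 CPM in macrophages (log2 fold change -14.16, SE 0.98, adjusted p = 8.3e-06, -17.59 without B cell replicate 2). Il6 had 2.41, 3.13 and 4.25 CPM in B cells, against 20.9, 5.14 and 112 CPM in macrophages (log2 fold change -3.81, SE 1.08, adjusted p = 0.013, -2.0 without macrophage replicate 3). For Il1b and Il6 replicate 2 was the lowest and replicate 3 the highest macrophage library. Tnf was low in both cell types, with 8.91, 11 and 10.8 CPM in B cells, against 21.3, 14 and 31.4 CPM in macrophages (log2 fold change -1.11, SE 0.29, adjusted p = 0.00809), and its call was lost without macrophage replicate 3 (-0.79). Higher in B cells were the lymphotoxin genes Lta and Ltb, which shape lymphoid tissue, and Il10. Ltb had 28.8, 28 and 41.3 CPM in B cells, against 0.383, 0.523 and 1.33 CPM in macrophages (log2 fold change 5.44, SE 0.37, adjusted p = 6.9e-06, 6.12 without macrophage replicate 3), and Il10 had 2.58, 2.29 and 4.6 CPM in B cells, against 0.287, 0 and 0.664 CPM in macrophages (log2 fold change 3.3, SE 0.68, adjusted p = 0.00281, 2.69 without macrophage replicate 2 and 4.4 without macrophage replicate 3). Ebi3, a subunit of interleukins 27 and 35, was not called (-0.33).

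Chemokine genes followed the same direction, with 16 of 17 lower in B cells and a median of -11.52 (-9.24 with bounds). Pf4 had 1 count in B cells and 5019, 5418 and 5038 CPM in macrophages (log2 fold change -17.01 with a 95% counting interval of -22.79 to -15.01, with no count left without B cell replicate 1), and of the other platelet markers Ppbp had 0, 0 and 0 CPM in B cells, against 32.7, 49.5 and 64.9 CPM in macrophages, Itga2b stood at 0.885 CPM or less in all 6 libraries, and Gp9 and Gp1bb were listed at 0 there. Cxcl3, a neutrophil attractant, had no count in B cells and 763, 377 and 1255 CPM in macrophages, at least 9477-fold lower in B cells. Ccl9 had 1 count in B cells and 1392, 1175 and 1342 CPM in macrophages (log2 fold change -15.03 with a 95% counting interval of -20.8 to -13.02, with no count left without B cell replicate 2). Ccl22, a ligand of Ccr4 that IL-4 induces, was the exception, with 26.8, 22 and 20.6 CPM in B cells, against 2.3, 1.92 and 5.98 CPM in macrophages (log2 fold change 2.77, SE 0.38, adjusted p = 3.4e-04, 3.44 without macrophage replicate 3). The receptors were divided between lymphoid and inflammatory ones, with 9 of 20 higher in B cells (45.0%) and 11 lower (55.0%). Among all genes 25.5% were higher and 31.4% lower. Cxcr5, which draws B cells into follicles, had 128, 124 and 133 CPM in B cells, against 0.766, 0.436 and 2.28 CPM in macrophages (log2 fold change 6.8, SE 0.39, adjusted p = 2.9e-06, 7.72 without macrophage replicate 3). Gpr183, the oxysterol receptor that positions B cells, had 95.3, 94.4 and 105 CPM in B cells, against 0.287, 0.61 and 0.19 CPM in macrophages (log2 fold change 8.02, SE 0.24, adjusted p = 2.2e-07, 8.62 without macrophage replicate 2). Ccr7, which guides cells to lymph nodes, had a log2 fold change of 3.47. The formyl peptide receptor Fpr1 had 2 counts in B cells and 1461, 1039 and 1349 CPM in macrophages (log2 fold change -14.22 with a 95% counting interval of -17.52 to -12.62). Ccr1 had 0.0891, 0.229 and 0.443 CPM in B cells, against 591, 572 and 469.7 CPM in macrophages (log2 fold change -11.01, SE 0.30, adjusted p = 1.6e-07).

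Of 34 tested type I interferon response genes, 15 were higher in B cells (44.1%), 7 lower (20.6%) and 12 not called, against 25.5% higher and 31.4% lower among all genes, with a median of 0.70. Leaving out single libraries gave 11 to 16 higher and 5 to 9 lower. Isg15, a ubiquitin-like effector, had 172, 163 and 189 CPM in B cells, against 28.1, 11.9 and 17 CPM in macrophages. The lowest B cell library was above the highest macrophage library (log2 fold change 3.21, SE 0.30, adjusted p = 3.7e-05). Oasl1 had 190.2, 203 and 228 CPM in B cells, against 33.4, 10.7 and 16.1 CPM in macrophages (log2 fold change 3.37, SE 0.39, adjusted p = 1.3e-04), and Gbp2, a guanylate-binding protein, had 394, 380.5 and 438 CPM in B cells, against 75.4, 39.7 and 78.7 CPM in macrophages (log2 fold change 2.65, SE 0.26, adjusted p = 5.4e-05). Ifit1 and Ifit2 had log2 fold changes of 3.03 and 4.62. The receptor chains were lower in B cells, with Ifnar1 at 41.7, 33.1 and 41.8 CPM in B cells, against 352, 308 and 456 CPM in macrophages (log2 fold change -3.26, SE 0.19, adjusted p = 3.2e-06), and Ifnar2 at 29.8, 28.5 and 29.9 CPM in B cells, against 459, 413 and 444 CPM in macrophages (log2 fold change -3.9, SE 0.11, adjusted p = 1.6e-07). Irf7, which amplifies the response, had 57.6, 61.9 and 80.1 CPM in B cells, against 515, 61.2 and 201 CPM in macrophages. The groups overlapped at replicate 2 of the macrophages, and Irf7 was called lower (log2 fold change -1.96, SE 0.67, adjusted p = 0.0282). That call was lost without macrophage replicate 1 (-0.97) or replicate 3 (-2.13), and was kept in at least 1 of the other leave-one-out fits. Dhx58, an RNA sensor, was not called (0.78). The interferon-stimulated response element, searched as GAAA and GAAA with any 2 bases between them, occurred in 14 of the 26 list members with a promoter window (53.8%) and in 337 of all 8681 (3.88%). It occurred in 4.38% of genes higher in B cells and 3.79% of genes lower. Of the 3 matches shown, 2 belong to genes higher in B cells, and Stat2 was not called. The capitals mark the element or its reverse complement on the strand of the gene. They lie at chr3:142620594-142620623 (plus), chr4:156200877-156200906 (minus) and chr10:128270266-128270295 (plus), 59, 78 and 222 bases before the start.
Gbp2: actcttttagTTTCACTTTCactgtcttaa
Isg15: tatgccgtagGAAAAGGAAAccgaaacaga
Stat2: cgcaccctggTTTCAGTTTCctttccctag

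Immediate early factors and feedback regulators were mixed. In the AP-1, EGR and NR4A list, 5 of 19 were higher (26.3%) and 12 lower (63.2%), against 25.5% and 31.4% of all genes (median -1.36). With total counts, 7 were higher and 9 lower. Fos had 0.267, 0.306 and 0.0885 CPM in B cells, against 47.5, 48.5 and 48.9 CPM in macrophages (log2 fold change -7.68, SE 0.22, adjusted p = 2.0e-07) and Fosl2 had 0.267, 0.229 and 0.266 CPM in B cells, against 66.7, 60.6 and 99.8 CPM in macrophages (log2 fold change -8.16, SE 0.33, adjusted p = 6.4e-07), whereas Jund had 385, 407 and 410.5 CPM in B cells, against 89, 108 and 75.3 CPM in macrophages (log2 fold change 2.14, SE 0.15, adjusted p = 8.3e-06). Batf, which B and T cells need for class switching and effector fates, had 64.1, 75.7 and 56.3 CPM in B cells, against 17, 19.6 and 17.1 CPM in macrophages (log2 fold change 1.87, SE 0.14, adjusted p = 1.3e-05). Egr1 and Nr4a1 lost their calls without single libraries (0.91 to 0.99 and 0.85 to 0.96), as did Egr2 without macrophage replicate 2 (-0.97), and Nr4a3 gained one without macrophage replicate 3 (2.83). In the SOCS, DUSP and feedback list, 4 of 22 were higher (18.2%) and 9 lower (40.9%), against 25.5% and 31.4% of all genes. The median of this list was -0.54 and became 0.02 under total counts. Socs3, induced by interleukins 6 and 10, had 14.2, 18.3 and 11.3 CPM in B cells, against 229, 163 and 314 CPM in macrophages (log2 fold change -4.01, SE 0.30, adjusted p = 1.2e-05). The MAP kinase phosphatase Dusp10 had 56, 52.9 and 60.7 CPM in B cells, against 1.82, 1.48 and 1.61 CPM in macrophages (log2 fold change 5.1, SE 0.14, adjusted p = 1.6e-07). Zc3h12a, the RNase Regnase-1, lost its call without macrophage replicate 3 (-0.99). Socs1 was not called (41.3, 43 and 36.5 CPM in B cells, against 59.6, 23 and 130.4 CPM in macrophages). Inflammasome and cell death genes were lower in B cells for 11 of 19 (57.9%) and higher for 1 (5.26%), against 31.4% and 25.5% of all genes (median -1.49). With total counts, 8 were lower and 3 higher. Nlrp3, a sensor, had 1 count in B cells and 309, 183 and 597 CPM in macrophages (log2 fold change -13.18 with a 95% counting interval of -18.94 to -11.16, with no count left without B cell replicate 2). The adaptor Pycard had a log2 fold change of -2.51 and the pore protein Gsdmd one of -1.51. Casp8 had 196, 211 and 215 CPM in B cells, against 179.6, 171 and 197 CPM in macrophages and was not called.

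MHC class II and antigen processing genes were higher in B cells for 16 of 26 members and lower for 4 (median 1.85). H2-Aa, the alpha chain of I-A, had 1878, 1961 and 1927 CPM in B cells, against 56.1, 40.1 and 69.7 CPM in macrophages. The B cell libraries were above the macrophage libraries with no overlap (log2 fold change 5.12, SE 0.25, adjusted p = 1.4e-06). Cd74 had 3837, 4167 and 4002 CPM in B cells, against 210.3, 165 and 435 CPM in macrophages (log2 fold change 3.89, SE 0.39, adjusted p = 6.2e-05) and H2-Eb1 had 1442, 1554 and 1574 CPM in B cells, against 21.5, 19.9 and 29.4 CPM in macrophages (log2 fold change 6.01, SE 0.21, adjusted p = 3.8e-07). Ciita, the master regulator of these genes, had 354, 321 and 317 CPM in B cells, against 1.05, 1.39 and 2.09 CPM in macrophages (log2 fold change 7.76, SE 0.21, adjusted p = 1.7e-07). The class I light chain B2m went the other way, with 742, 834 and 860.4 CPM in B cells, against 3591, 2474 and 2728 CPM in macrophages (log2 fold change -1.85, SE 0.19, adjusted p = 7.3e-05), and so did H2-D1 (-1.58). The ubiquitin ligase March1, which removes class II from the surface, had 10.7, 10.3 and 10.4 CPM in B cells, against 156, 142 and 157 CPM in macrophages (log2 fold change -3.86, SE 0.10, adjusted p = 1.5e-07). H2-K1 was not called (-0.54), nor was the lysosomal thiol reductase Ifi30, with 405, 427 and 431 CPM in B cells, against 411, 541 and 302 CPM in macrophages. H2 genes have near-identical relatives, so their counts carry that uncertainty.

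Costimulatory and checkpoint genes were higher in B cells for 5 of 24 (20.8%) and lower for 13 (54.2%), against 25.5% and 31.4% of all genes (median -1.15). With total counts, 5 were higher and 11 lower. Cd40, through which T cells help B cells, had 117, 112 and 108 CPM in B cells, against 12.2, 12.9 and 9.3 CPM in macrophages (log2 fold change 3.29, SE 0.14, adjusted p = 8.3e-07). Cd83, an activation marker, had 192, 194 and 207 CPM in B cells, against 2.78, 3.05 and 2.85 CPM in macrophages (log2 fold change 6.09, SE 0.11, adjusted p = 1.1e-07), and the inhibitory receptor Btla had a log2 fold change of 7.79. The ligand Cd274 (PD-L1) had 9.18, 10.8 and 10.4 CPM in B cells, against 228, 232 and 285 CPM in macrophages (log2 fold change -4.62, SE 0.14, adjusted p = 2.5e-07). Cd80 was lower in B cells (2.67, 1.76 and 4.07 CPM in B cells, against 24.4, 21.2 and 32.2 CPM in macrophages; log2 fold change -3.2, SE 0.30, adjusted p = 4.3e-05), while its relative Cd86 was not called (35.6, 48.6 and 35.9 CPM in B cells, against 51.9, 59.6 and 50.4 CPM in macrophages). Among BAFF, APRIL and tumour necrosis factor family genes, 8 of 20 were higher and 11 lower (median -1.76). For BAFF and APRIL, 2 receptors were higher and both ligands lower in B cells, and the third receptor gene, Tnfrsf17, had 0 counts in B cells and 1 in macrophages and was not tested. Tnfrsf13c, the BAFF receptor, had 76.1, 75.3 and 83.8 CPM in B cells, against 0.287, 0.349 and 0.474 CPM in macrophages (log2 fold change 7.69, SE 0.17, adjusted p = 1.3e-07), and Tnfrsf13b (TACI) had 83.4, 87.7 and 75.9 CPM in B cells, against 4.6, 3.31 and 3.41 CPM in macrophages (log2 fold change 4.45, SE 0.15, adjusted p = 3.6e-07). Tnfsf13b, which encodes BAFF, had no count in B cells and 6.42, 4.1 and 3.98 CPM in macrophages, at least 57.4-fold lower in B cells. The APRIL gene Tnfsf13 had 1 count in B cells (log2 fold change -7.66 with a 95% counting interval of -13.45 to -5.65, with no count left without B cell replicate 3). The receptor for tumour necrosis factor Tnfrsf1b had 36.3, 36.5 and 33.2 CPM in B cells, against 757, 577 and 953 CPM in macrophages (log2 fold change -4.43, SE 0.22, adjusted p = 1.5e-06).

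Cytokine receptors were higher in B cells for 8 of 29 (27.6%) and lower for 18 (62.1%), against 25.5% and 31.4% of all genes (median -1.53). The higher share was thus near that of all genes. With total counts, 8 were higher and 14 lower. Csf1r, the receptor for the growth factor that macrophages depend on, had 0, 0.153 and 0.177 CPM in B cells, against 3676, 3715 and 3212 CPM in macrophages (log2 fold change -14.81, SE 0.40, adjusted p = 1.6e-07). Csf2rb, the shared chain for GM-CSF, interleukin 3 and interleukin 5, had 26.6, 25.5 and 23.2 CPM in B cells, against 1651, 1592 and 1706 CPM in macrophages (log2 fold change -6.04, SE 0.15, adjusted p = 1.5e-07). Il5ra, which pairs with it, had the opposite direction, with 18.6, 16.2 and 14.8 CPM in B cells, against 0, 0.261 and 0.0949 CPM in macrophages (log2 fold change 6.95, SE 0.41, adjusted p = 3.6e-06, 8.13 without macrophage replicate 2). Il21r, which drives plasma cell formation, had 289.7, 301 and 316 CPM in B cells, against 72.5, 98.7 and 73.8 CPM in macrophages (log2 fold change 1.89, SE 0.14, adjusted p = 1.4e-05), and Flt3 had 26.9, 27.4 and 39.2 CPM in B cells, against 0.192, 0.261 and 0.664 CPM in macrophages (log2 fold change 6.35, SE 0.35, adjusted p = 2.5e-06, 7.02 without macrophage replicate 3). Il17ra was not called (-0.08).

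Cell cycle genes were higher in B cells in 41 of 42 members, none being lower, with a median of 5.20. Top2a, the topoisomerase of replicating cells, had 1427, 1472 and 1394 CPM in B cells, against 12.6, 10.8 and 16.1 CPM in macrophages. All B cell libraries were far above all macrophage libraries (log2 fold change 6.76, SE 0.21, adjusted p = 2.3e-07). Mcm6, part of the replicative helicase, had 603, 630.2 and 599 CPM in B cells, against 30.5, 29.6 and 22.2 CPM in macrophages (log2 fold change 4.48, SE 0.16, adjusted p = 4.0e-07), and Mcm3 had 654, 653 and 649 CPM in B cells, against 71.9, 82.3 and 69.5 CPM in macrophages (log2 fold change 3.13, SE 0.12, adjusted p = 4.7e-07). Mki67, the Ki-67 antigen of cycling cells, differed less, with 1545, 1462 and 1392 CPM in B cells, against 332, 276 and 667 CPM in macrophages (log2 fold change 1.79, SE 0.33, adjusted p = 0.00163), and replicate 3 was the highest macrophage library. E2f1 was the member not called, with 46.6, 45.2 and 43.9 CPM in B cells, against 75.3, 68 and 74 CPM in macrophages and a log2 fold change of -0.68. Of 15 tested regulators of entry into the cycle, 5 were higher (33.3%) and 4 lower (26.7%), close to the 25.5% and 31.4% of all genes, and the median was 0.08, or -0.03 without B cell replicate 2 or macrophage replicate 2. Myc had 164, 157 and 156 CPM in B cells, against 4.41, 3.31 and 4.74 CPM in macrophages (log2 fold change 5.26, SE 0.15, adjusted p = 1.8e-07), and Ccnd2, the D-type cyclin of B cells, had 329.7, 334 and 250.2 CPM in B cells, against 1.63, 1.13 and 5.88 CPM in macrophages (log2 fold change 6.73, SE 0.52, adjusted p = 1.5e-05, 7.77 without macrophage replicate 3). The inhibitor Cdkn1a (p21) had 1.78, 1.3 and 1.42 CPM in B cells, against 28.8, 41.2 and 29.4 CPM in macrophages (log2 fold change -4.46, SE 0.22, adjusted p = 1.6e-06). Ccnd3 was not called (0.46).

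E2F sites were searched in the promoter windows because E2F factors control these genes in many cell types. TTTCGCGC occurred in 5 of the 34 list members with a window (14.7%) and in 69 of all 8681 (0.795%), with 1.76% of genes higher and 0.26% of genes lower in B cells. TTTGGCGC occurred in 6 of 34 (17.6%) and in 102 of 8681 (1.17%), with 2.08% of genes higher and 0.705% of genes lower. The matches of both forms overlap in Mcm5 and Mcm6. Below, capitals mark TTTCGCGC or its reverse complement for Mcm6, Mcm5 and Cdk1, and TTTGGCGC or its reverse complement for Pola1. The stretches lie at chr1:128359793-128359822 (minus), chr8:75109345-75109374 (plus), chr10:69353025-69353054 (minus) and chrX:93632275-93632304 (minus), 106, 153, 131 and 138 bases before the start.
Mcm6: gtatgcttttgGCGCGAAAagtgcgtgcgg
Mcm5: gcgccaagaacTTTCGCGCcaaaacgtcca
Cdk1: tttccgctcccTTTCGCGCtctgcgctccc
Pola1: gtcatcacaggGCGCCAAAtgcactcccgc

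Ribosome biogenesis and nucleotide synthesis were higher in B cells in 30 of 31 members (median 2.74). Nucleolin (Ncl) had 4495, 4893 and 4567 CPM in B cells, against 429.6, 510.2 and 399 CPM in macrophages (log2 fold change 3.38, SE 0.18, adjusted p = 2.1e-06), and nucleophosmin (Npm1) had 1864, 2068 and 1954 CPM in B cells, against 283, 379.8 and 216 CPM in macrophages (log2 fold change 2.74, SE 0.23, adjusted p = 2.3e-05). Shmt1, which feeds 1-carbon units into thymidylate synthesis, had 147, 158 and 138 CPM in B cells, against 1.05, 0.959 and 1.04 CPM in macrophages (log2 fold change 7.17, SE 0.13, adjusted p = 1.1e-07). Impdh1 was the member lower in B cells (log2 fold change -1.27, SE 0.10, adjusted p = 1.6e-05). Glycolysis and hypoxia genes had the reverse pattern, with 24 of 29 lower in B cells and 1 higher (median -2.37). With total counts, 20 were lower and 1 higher. Pkm, the last enzyme of glycolysis, had 1176, 1251 and 1256 CPM in B cells, against 5037, 4428 and 4419 CPM in macrophages (log2 fold change -1.91, SE 0.16, adjusted p = 2.2e-05), and Gapdh had 1238, 1274 and 1292 CPM in B cells, against 3613, 3165 and 2926 CPM in macrophages (log2 fold change -1.35, SE 0.16, adjusted p = 1.3e-04). Hif1a, the hypoxia factor that LPS also raises in macrophages, had 126, 125 and 116 CPM in B cells, against 1593, 1703 and 1701 CPM in macrophages (log2 fold change -3.77, SE 0.14, adjusted p = 3.8e-07). The hexokinase Hk3 had 0.267, 0.306 and 0.177 CPM in B cells, against 414, 405 and 432 CPM in macrophages (log2 fold change -10.63, SE 0.17, adjusted p = 1.1e-07). The member higher in B cells was the glucose transporter Slc2a3, with 13.1, 12.2 and 13.1 CPM in B cells, against 0.287, 0.261 and 0.19 CPM in macrophages (log2 fold change 5.64, SE 0.22, adjusted p = 5.1e-07). Pfkp was not called (-0.03).

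Cholesterol synthesis and the respiratory chain were mostly not called under TMM, and their counts moved with the scaling. Among 22 cholesterol genes, 5 were higher (22.7%) and 1 lower (4.55%), against 25.5% and 31.4% of all genes. The median was 0.55, and without macrophage replicate 3 the higher calls were 3. Total-count scaling gave 12 higher and 1 lower (median 1.11). Lss, which forms lanosterol, had 108, 77.6 and 111 CPM in B cells, against 30.7, 32.5 and 30.3 CPM in macrophages (log2 fold change 1.66, SE 0.15, adjusted p = 3.6e-05). Fdps and Cyp51 lost their calls without that library (0.91 and 1.0). Of 27 respiratory chain genes, 23 were not called, 2 were higher (7.41%) and 2 lower, against 25.5% and 31.4% of all genes (median 0.28). Total-count scaling gave 10 higher and 0 lower (median 0.84). The calls of Cyc1 and Cycs were lost without macrophage replicate 3 (0.90 and 0.98), that of Cycs also without B cell replicate 3 (0.97), and that of Sdhc without 3 other libraries (-0.97 to -0.94). Eno1 and Hmgcs1, which cells of these kinds use, were listed at 0 in all 24 libraries, and 4226 of the 20673 symbols were. A gene at 0 in every library is therefore reported only as listed. In the BCL2 family, 4 of 15 members were higher (26.7%) and 6 lower, against 25.5% and 31.4% of all genes. Total counts turned this balance to 5 higher and 3 lower. Bcl2, which keeps lymphocytes alive, had 9.62, 8.33 and 8.76 CPM in B cells, against 1.82, 1.22 and 1.99 CPM in macrophages (log2 fold change 2.41, SE 0.22, adjusted p = 3.4e-05), and Mcl1, another survival protein, had 131, 144 and 147 CPM in B cells, against 445, 489 and 379 CPM in macrophages (log2 fold change -1.64, SE 0.13, adjusted p = 1.6e-05). Of the Bcl2a1 copies, Bcl2a1a and Bcl2a1b were lower in B cells (-6.73 and -1.36), while Bcl2a1d was not called (0.02). How reads shared between these near-identical copies were counted is not given in the sources used here.

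**Figure D4:**
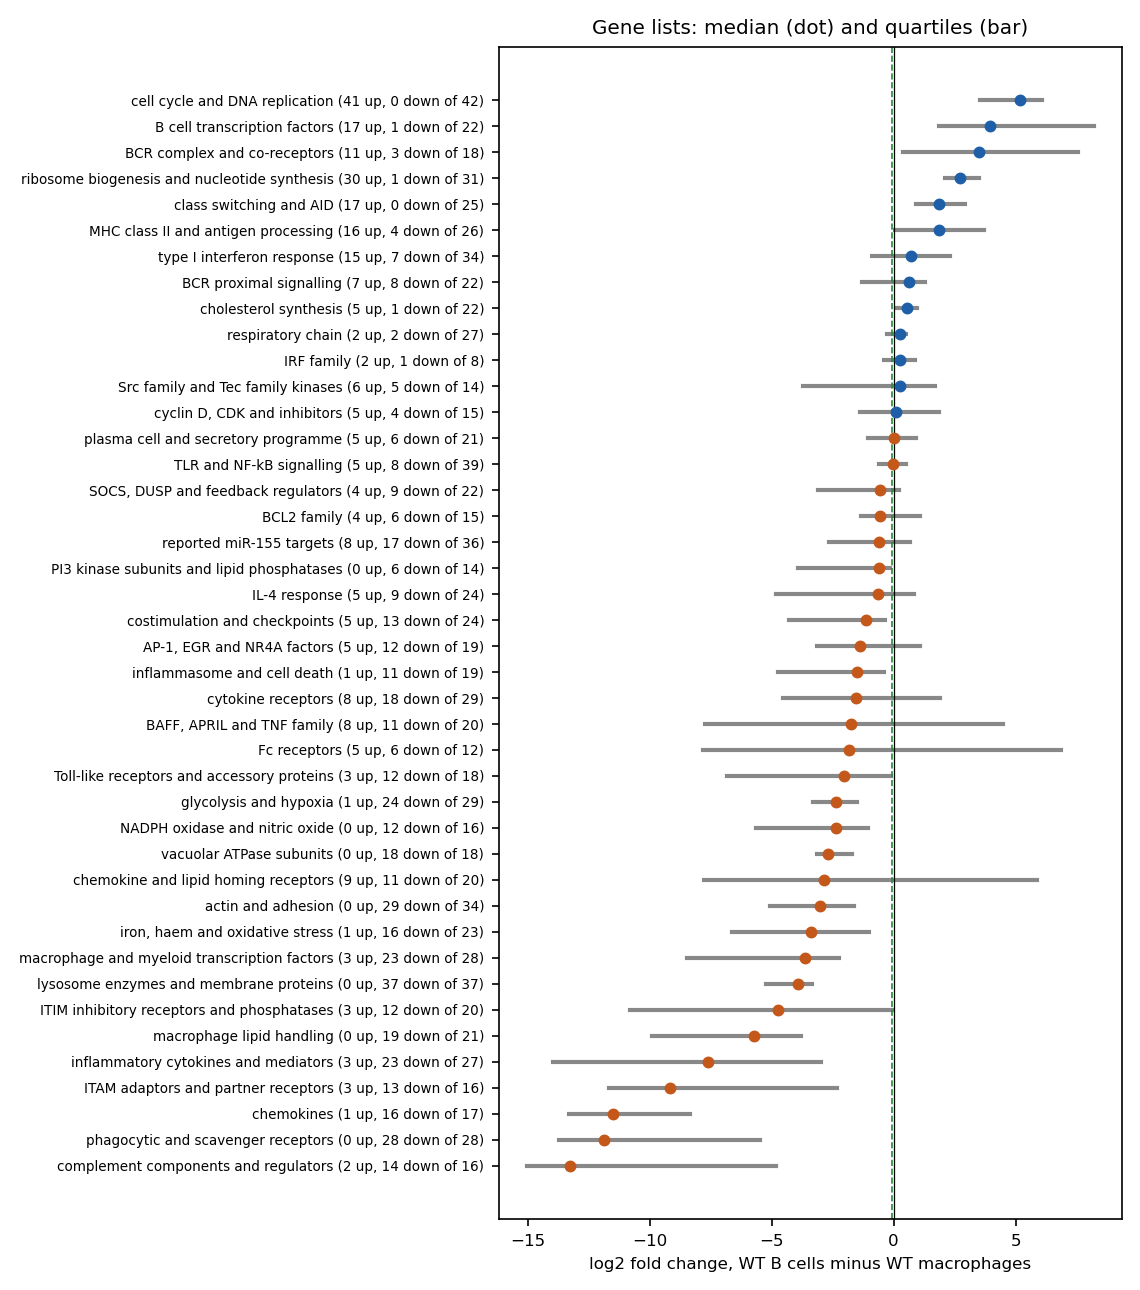
Median log2 fold change (dot) and quartiles (bar) of the tested genes of 42 gene lists, B cells over macrophages, with a dashed line at the median of all tested genes (-0.06). Values above 0 are higher in B cells. The cell cycle list lies furthest to the side of B cells with a median of 5.20, and the complement list furthest to the side of macrophages with -13.28.

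Because the series concerns miR-155, genes reported as its targets were read across the cell types. Of 36 tested, 8 were higher in B cells, 17 lower and 11 not called, with a median of -0.59, against 25.5% and 31.4% of all genes. Ets1, a transcription factor of lymphocytes, had 91.7, 94.4 and 90.1 CPM in B cells, against 6.99, 3.4 and 14 CPM in macrophages (log2 fold change 3.5, SE 0.42, adjusted p = 1.6e-04, 4.15 without macrophage replicate 3). Peli1, a ubiquitin ligase of the TLR pathway, had 65.8, 71.8 and 69 CPM in B cells, against 22.7, 19.5 and 29.5 CPM in macrophages (log2 fold change 1.53, SE 0.16, adjusted p = 6.7e-05). Picalm, an endocytic adaptor, had 95.8, 97.9 and 90.6 CPM in B cells, against 543, 533 and 529 CPM in macrophages (log2 fold change -2.5, SE 0.10, adjusted p = 5.9e-07), and Nfe2l2, the oxidative stress factor NRF2, had 40.7, 41.3 and 43.3 CPM in B cells, against 469, 612 and 402 CPM in macrophages (log2 fold change -3.56, SE 0.18, adjusted p = 1.7e-06). Inpp5d and the TAK1 partner Tab2 were the most abundant members that were not called, and Tab2 had 124, 128 and 113 CPM in B cells, against 109, 107 and 131 CPM in macrophages. These genes were listed from the literature and not for a site in these cells, and some members also stand in lists above, among them Csf1r (-14.81) and Hif1a (-3.77). The level of miR-155 itself is not analysed here.

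The KO B cells and KO macrophages gave a second set of libraries for the same comparison, with 3 libraries in each group and the same treatments. Of 11263 tested genes, 2952 (26.2%) were higher in KO B cells and 3503 (31.1%) lower, together 57.3%, and with no minimum fold 42.6% were higher and 44.8% lower. Among genes tested in both genotypes, 2618 of 2813 higher calls (93.1%) and 3186 of 3453 lower calls (92.3%) were made again in the KO libraries. The sign was the same for 6256 of 6266 called genes (99.84%). Across the 11048 genes tested in both, Pearson's r of the log2 fold changes was 0.986, as a description over genes that are not independent replicates. Ms4a1 had a log2 fold change of 8.5 in the KO libraries, Itgam one of -11.56 and Tlr4 one of -4.28. The median absolute difference between the genotypes was 0.274 for called genes. A test of the interaction between cell type and genotype called 80 of 11490 genes (0.696%), 28 of them with a larger value in the WT libraries.

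**Figure D5:**
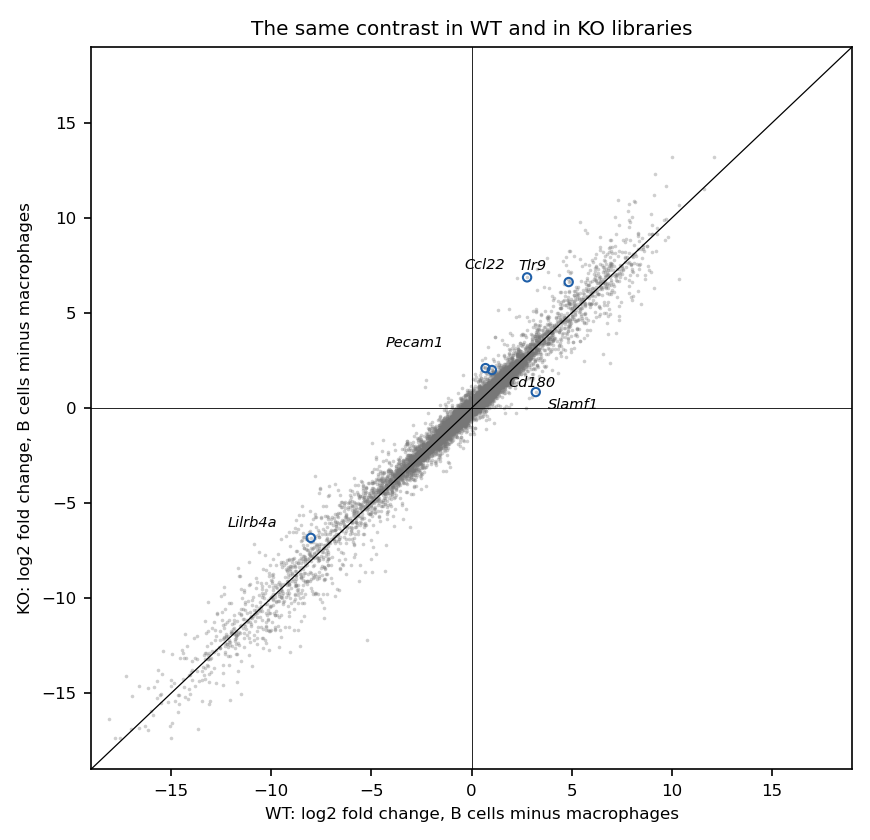
Log2 fold change of B cells over macrophages in the KO libraries against the WT libraries for genes tested in both, with the line of equal values. Labelled genes differ between genotypes by the interaction test. Ccl22 lies at 2.77 in WT and 6.88 in KO, and Slamf1 at 3.20 in WT and 0.84 in KO.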

How the data were processed

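Messenger RNA was sequenced in 24 libraries, of which the 6 from WT B cells and WT macrophages were compared, and the 6 from KO B cells and KO macrophages were a second set. Per the submitters' processing notes, reads were trimmed with cutadapt and aligned with STAR to mm9. The authors deposited raw counts per gene symbol, over coding sequence as the files are named; no source used here gives versions, the counting tool, strand setting or annotation. Overlapping genes and near-identical copies (Fcgr, H2, Oas, Naip, Bcl2a1 genes) are therefore uncertain.

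Lines for unassigned reads were left out. Counts were filtered with filterByExpr, scaled by TMM and tested with the quasi-likelihood test of edgeR 4.0.16 (limma 3.58.1, R 4.3.3), two-sided, with Benjamini-Hochberg adjustment over all tested genes. A call needed an adjusted p under 0.05 and a 2-fold difference. Each SE was worked back from the fold change and the test statistic, and was not estimated separately. For genes with few counts in 1 group it can be smaller than the counting error. The interaction was tested over 12 libraries. The fit was tested on simulated data. DESeq2 1.42.0, other scalings, other filters and leaving out each library were alternatives. Genes were named by abundance within each list, by rank of fold change and as markers. The members and lists were chosen with earlier results of these data known, and Tnf, Il6, Il12a, Ptgs2, Ciita, Tfe3, Mitf, Tfec, Tnfsf13b, Tnfsf13, Ifit1, Ifit2, Isg20, Shmt1, Lamp1, Myd88, Irak4, Cd80, Cd86, Hk3 and Ccr7 were added after their values were seen. Some list members are counted but not reported here by name. Immunoglobulin genes and mitochondrially encoded genes are not analysed here. Coordinates are those of GRCm38.p6 promoter windows, which were matched to the counts by symbol only.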

Additional observations from a re-analysis of the deposited data

Results flagged for a closer look

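For 8 named genes the difference between B cells and macrophages itself differed between WT and KO libraries, by the edgeR quasi-likelihood test of the interaction over 12 libraries with Benjamini-Hochberg adjustment. Differences are WT minus KO of the log2 fold change of B cells over macrophages. The chemokine gene Ccl22 differed by -4.12 (SE 0.56, adjusted p = 0.00703), with 2.77 in WT and 6.88 in KO. Pecam1, an adhesion molecule, differed by -1.42 (SE 0.18, adjusted p = 0.00531), with 0.69 in WT and 2.10 in KO. Tlr9 differed by -1.80 (SE 0.36, adjusted p = 0.0486), with 4.85 in WT and 6.63 in KO. Slamf1, a costimulatory receptor, was the one with the larger value in WT, by 2.36 (SE 0.31, adjusted p = 0.00669), with 3.20 in WT and 0.84 in KO. The inhibitory receptor Lilrb4a differed by -1.21 (SE 0.23, adjusted p = 0.0354), with -8.03 in WT and -6.83 in KO. Cd180 differed by -1.0 (SE 0.16, adjusted p = 0.0184), with 1.01 in WT and 2.0 in KO. Ebi3 differed by -1.02 (SE 0.21, adjusted p = 0.0496), with -0.33 in WT and 0.67 in KO. Ncf1 differed by -0.51 (SE 0.10, adjusted p = 0.0386), with -0.81 in WT and -0.31 in KO. The number of genes called by this test moved strongly when single libraries were left out.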

How the results depend on the processing

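In WT, the calls of 2849 higher and 3506 lower ran from 2830 to 2932 and from 3487 to 3627 without single libraries. In KO, 2952 and 3503 ran from 2962 to 3058 and from 3517 to 3615. Dropping the 2-fold minimum gave 4311 higher genes in WT and 4798 in KO, because smaller differences then count. Of 461 tested named genes, 354 stayed on the same side of the threshold under every alternative, and none reversed. Total counts moved 39 of 42 list medians by more than the spread between libraries and changed the sign of 25 named genes, none of them called in either fit. The interaction calls depended most on the settings: against 80 genes there were 341 with the DESeq2 test and 327 with all 24 libraries in 1 fit. Without single libraries they ran from 16 (without WT B cell replicate 2) to 1950 (without WT macrophage replicate 3), and without WT macrophage replicate 2 there were 179. The cause was not tested. In WT, deviations from the group mean in samples of the same number had correlations of -0.165, 0.029 and -0.139, and other pairs ran from -0.11 to 0.171. In KO these were 0.048, -0.015 and -0.027, and other pairs ran from -0.117 to 0.113. With 3 libraries per group such values cannot show whether the numbers pair the samples. With the replicate block there were 2876 higher and 3491 lower genes in WT and 58 interaction calls. Genes with few counts in 1 group have fold changes that depend on single reads, and their SE can be too small.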
